A study of Mus musculus with 50 samples.

Results

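The combined action of a mutant p53 and an activated Ras on young adult mouse colon (YAMC) cells was measured against what each oncogene did alone, with the uninfected YAMC cells as the starting point. For each gene the quantity examined was the interaction, mp53/Ras minus mp53 minus Ras plus YAMC, on the log2 scale. The contrast takes 40 of the 50 arrays of the series, 10 in each of these 4 groups, and covers 12730 of 18193 gene symbols of the platform annotation.

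The groups were mp53/Ras (constructs p53175H/RasV12), mp53 (p53175H/Neo), Ras (Bleo/RasV12) and YAMC (no construct), and the remaining 10 arrays held the vector population bleo/Neo (Bleo/Neo). YAMC cells come from the Immorto-mouse, which carries the temperature-sensitive large T antigen tsA58 under the interferon-inducible H-2Kb promoter. All groups carry that transgene, were grown at 33 °C with 10% serum, and before harvest spent 48 h at 39 °C with interferon gamma withdrawn, followed by 24 h in 0% serum. The RNA, 5 µg per array on Affymetrix mouse arrays, was polysomal: it came from mRNA carrying several ribosomes, so an intensity depends on how much of a transcript there is and on how well it is loaded. Each infected population is polyclonal and exists once, and the labels number the 10 replicates without saying whether they were separate cultures, so p-values measure only the spread between these samples. The mp53/Ras, mp53 and Ras cells were retrovirally infected and the YAMC cells were not, so that in this contrast an effect of the infection and its vectors and an effect of the oncogenes cannot be told apart.

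p53 is a transcription factor that stress activates and that turns on genes for cell cycle arrest and cell death; many tumour mutants of it no longer bind those genes. Ras is a switch protein that passes growth signals to the ERK and PI3 kinase cascades, and an activated mutant stays on without the signal. Colon carcinomas often carry lesions of both.

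An interaction of 0 means that the mp53 and Ras differences from YAMC add up to the mp53/Ras difference. It can also be read as the difference with Ras in mp53 cells (mp53/Ras minus mp53) less the difference of Ras cells from YAMC cells (Ras minus YAMC). A pair of arrangements of the groups gives a value far from 0 by arithmetic. In one, mp53/Ras departs from what the single oncogenes did. In the other, all 3 infected populations differ from YAMC by a like amount, and the interaction is then about minus that amount. Levels below are log2 intensities given as the lowest to the highest array of a group with the median, interactions carry the standard error (SE) of the limma fit, and a gene was called at a Benjamini-Hochberg adjusted p under 0.05.

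Of the 40 arrays, 36 lay nearest to the mean of their own group and 4 did not. YAMC replicate 2 and Ras replicate 10 lay nearest to mp53, mp53 replicate 8 lay nearest to YAMC, and mp53 replicate 10 lay nearest to Ras. Because mp53 and Ras enter the contrast with the same sign and with 10 arrays each, its estimate is unaltered by which of these 2 groups mp53 replicate 10 and Ras replicate 10 are put in, whereas YAMC replicate 2 and mp53 replicate 8 pull it. Results are therefore given over 40 arrays and, without these 4, over 36. The keratin genes Krt8 and Krt18 were bright in all groups (mean Krt8 12.94 on mp53/Ras arrays, 12.36 on mp53 arrays and 12.84 on Ras arrays, against 11.75 on YAMC arrays). Of 8 colon epithelial markers 5 were above the median of the table (6.44) on at least 10 of the 40 arrays, among them Epcam and Krt19 on all 40, whereas the epithelial cadherin Cdh1 was above it on 0. Of 16 markers of colon differentiation 4 passed that filter, Tff3, Hnf4a, Guca2a and Muc2, and Cdx1, Vil1, Car1, Slc26a3 and Cdh17 were above the median on 0 of 40 arrays. The introduced oncogenes themselves are not analysed here.

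Over the 40 arrays the interaction was called for 1602 genes (12.6% of those tested), positive for 696 (5.47%) and negative for 906 (7.12%). It was at least 1 in size, a 2-fold departure, for 138 of them (1.08%), 64 positive (0.503%) and 74 negative (0.581%). Over the 36 arrays 2614 genes were called (20.5%), 1232 positive (9.68%) and 1382 negative (10.9%), and 1518 genes (11.9%) were called with the same sign in both. The median interaction over all tested genes was -0.00 and its quartiles were -0.16 and 0.15. The called genes were spread from -4.66 to 3.46, with medians of 0.45 for the positive and -0.47 for the negative ones. All counts of gene list members below stand beside these shares over all tested genes, 12.6% over 40 arrays and 20.5% over 36.

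**Figure D1:**
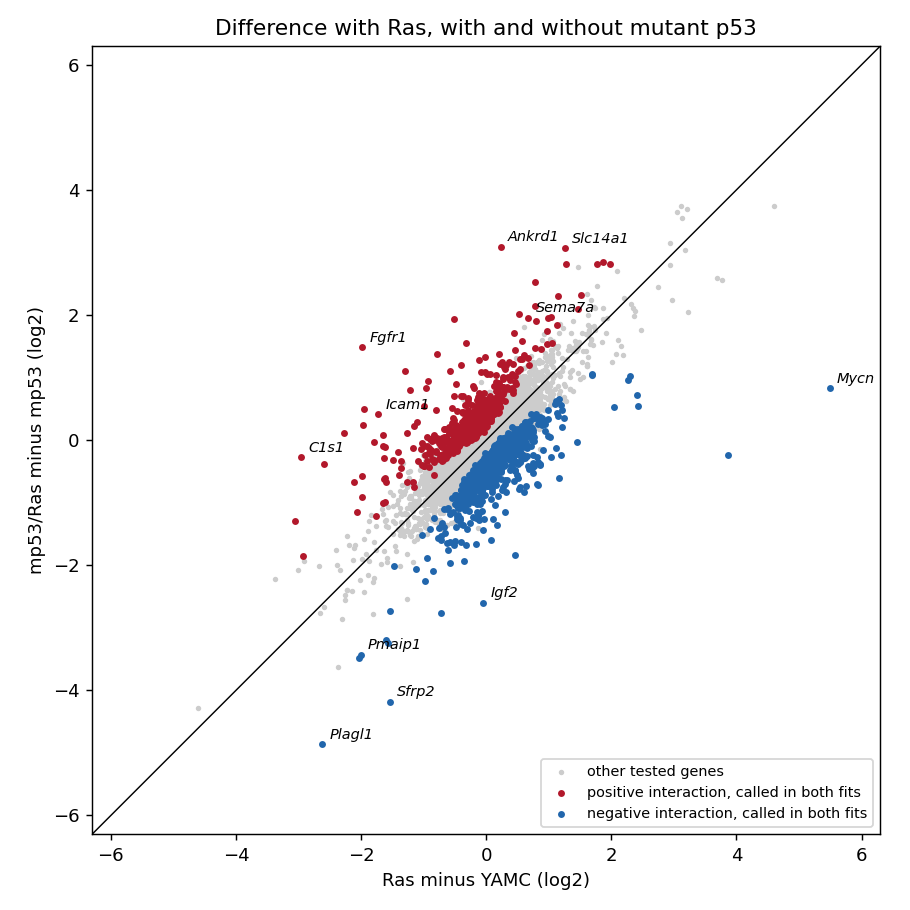
Difference with Ras in mp53 cells (mp53/Ras minus mp53, log2, vertical axis) against the difference of Ras cells from YAMC cells (Ras minus YAMC, log2, horizontal axis), 1 point per tested gene, over 40 arrays. The diagonal marks an interaction of 0, and the vertical distance from it is the interaction. Fgfr1 and Ankrd1 lie furthest above it among the named genes and Mycn furthest below.

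Among the 652 positive genes called in both fits (5.12% of those tested), the highest of the 4 group means was that of mp53/Ras for 361 genes (55.4%) and that of YAMC for 285 (43.7%). Among the 866 negative ones (6.8%) the lowest mean was that of mp53/Ras for 507 (58.5%) and that of YAMC for 351 (40.5%). The sign of the contrast itself raises the shares of these groups, so their sum does not describe the data. The split between them has to be read beside that over all tested genes. There the highest mean was that of mp53/Ras for 34.43% and that of YAMC for 30.02%. The lowest mean was that of mp53/Ras for 30.75% and that of YAMC for 31.83%. So mp53/Ras was ahead of YAMC on the high side over all tested genes as well, but not on the low side. Complete separation was more frequent on the low side of mp53/Ras. All 10 mp53/Ras arrays lay below every array of the other 3 groups for 98 of the 866 negative genes, and above every one for 20 of the 652 positive genes. Over all tested genes the same was true of 1.6% and 0.361%. YAMC stood above every array of the other 3 groups for 2 of the positive genes over 40 arrays, where 3 of all tested genes did (0.0236%), and for 51 over 36 arrays, where 147 of all tested genes did (1.15%). It stood below them for 2 of the negative genes over 40 arrays, where 3 of all tested genes did (0.0236%), and for 30 over 36 arrays, where 75 of all tested genes did (0.589%).

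The largest positive interaction was that of Fgfr1, a receptor tyrosine kinase for fibroblast growth factors. Its levels were 7.68 to 8.81 (median 8.24) on mp53/Ras arrays, 6.31 to 7.81 (median 6.70) on mp53 arrays and 5.52 to 6.49 (median 6.02) on Ras arrays, against 6.56 to 8.34 (median 8.04) on YAMC arrays. Leaving out YAMC replicate 2 and mp53 replicate 8, mp53/Ras and YAMC arrays were high and shared a range, and mp53 and Ras arrays lay below both. Ras went with a difference of 1.48 in mp53 cells and of -1.98 in YAMC cells, which gave an interaction of 3.46 ± 0.24 (adjusted p = 1.23e-13; 3.80 over 36 arrays). The bleo/Neo arrays, at 5.56 to 7.20, overlapped the mp53 and Ras arrays. YAMC minus bleo/Neo was 1.80 ± 0.18 for Fgfr1, so a low level was also found without an oncogene. A second probe set of Fgfr1 gave 1.64. The fibroblast growth factor gene Fgf5 and the receptor gene Fgfr4 had negative interactions of -0.96 ± 0.22 and -0.63 ± 0.10, although a second probe set of Fgf5 gave -0.05. Of the list of EGF and FGF ligands and receptors, 1 of 17 tested members were positive and 2 negative (17.6% called; 1 and 4 over 36 arrays).

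Ankrd1, a muscle and stress-induced ankyrin repeat protein that is a widely used target gene of the coactivator YAP, was highest in the doubly transformed cells. Levels were 8.39 to 9.04 (median 8.69) on mp53/Ras arrays, 5.41 to 5.95 (median 5.49) on mp53 arrays and 6.56 to 8.39 (median 7.16) on Ras arrays, against 5.34 to 7.58 (median 7.38) on YAMC arrays. The mp53/Ras arrays were highest and touched the range of Ras at its top, the mp53 arrays were lowest by median, and the Ras and YAMC arrays overlapped. mp53 alone differed from YAMC by -1.47 (adjusted p = 8.25e-07) and Ras alone by 0.23 (adjusted p = 0.353), whereas Ras in mp53 cells raised it by 3.09 (adjusted p = 6.97e-16). The interaction was 2.86 ± 0.28 (adjusted p = 9.58e-10; 3.06 over 36 arrays), and a second probe set gave 2.65.

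The promoters of Ankrd1 and Sema7a, which were highest in mp53/Ras cells, and of Gsta3, which was lowest in them, are shown to give the sequence around the start sites of genes with opposite interactions. Each runs 5′ to 3′ on the gene's strand, 250 bases before to 50 after the start, from RefSeq on GRCm38.p6: Ankrd1 at chr19:36119795-36120094 (minus strand), Sema7a at chr9:57939862-57940161 (plus strand) and Gsta3 at chr1:21240335-21240634 (plus strand). Capitals mark matches, on either strand, to the TEAD motif GGAATG (14.7% of 32851 promoters of this length hold it), the AP-1 motif TGANTCA (7.81%), the antioxidant response motif TGACNNNGC (12.4%) or the hypoxia response motif ACGTG (19.6%), where N is any base.
Ankrd1: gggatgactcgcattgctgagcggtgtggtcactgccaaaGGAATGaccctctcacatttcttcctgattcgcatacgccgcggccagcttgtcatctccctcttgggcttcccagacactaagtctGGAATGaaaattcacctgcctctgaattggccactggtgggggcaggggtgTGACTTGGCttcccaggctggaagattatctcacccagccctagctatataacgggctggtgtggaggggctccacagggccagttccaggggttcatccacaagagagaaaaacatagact
Sema7a: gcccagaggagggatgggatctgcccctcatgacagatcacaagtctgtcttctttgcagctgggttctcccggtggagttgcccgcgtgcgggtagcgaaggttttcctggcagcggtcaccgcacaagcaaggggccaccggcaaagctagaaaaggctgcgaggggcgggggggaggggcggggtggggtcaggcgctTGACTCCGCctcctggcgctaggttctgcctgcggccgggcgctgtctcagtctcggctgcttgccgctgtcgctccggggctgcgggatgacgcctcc
Gsta3: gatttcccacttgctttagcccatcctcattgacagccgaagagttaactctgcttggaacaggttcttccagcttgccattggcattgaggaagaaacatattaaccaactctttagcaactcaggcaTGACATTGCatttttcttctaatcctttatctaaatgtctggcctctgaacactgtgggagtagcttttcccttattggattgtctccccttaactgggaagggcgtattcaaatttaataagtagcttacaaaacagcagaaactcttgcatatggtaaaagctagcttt
Ankrd1 held 2 TEAD matches and 1 antioxidant response match, Sema7a and Gsta3 held 1 antioxidant response match each, and none of the 3 windows held the AP-1 or the hypoxia letters. Among the leading genes with a promoter entry, the TEAD letters occurred in 4 of 10 with a positive and 3 of 11 with a negative interaction, and the antioxidant response letters in 3 of 10 and 3 of 11. Here a gene counted if any of its promoter entries held the letters, whereas the percentages above are per promoter, so these measures are unlike. A match is a description of the letters only.

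Irx1 and Sema7a also had their highest level in mp53/Ras cells. Irx1, an Iroquois homeobox factor of embryonic patterning, had levels of 7.62 to 8.44 (median 7.85) on mp53/Ras arrays, 5.58 to 6.6 (median 5.90) on mp53 arrays and 6.31 to 6.92 (median 6.74) on Ras arrays, against 5.52 to 7.86 (median 7.60) on YAMC arrays. The mp53/Ras arrays were highest, YAMC arrays came next and overlapped them, and the mp53 arrays were lowest by median, with an interaction of 2.45 ± 0.27 (adjusted p = 1.64e-08). Sema7a, a membrane-anchored semaphorin that signals through integrins, had levels of 7.29 to 8.58 (median 7.98) on mp53/Ras arrays, 5.64 to 6.3 (median 5.89) on mp53 arrays and 6.21 to 6.75 (median 6.52) on Ras arrays, against 5.59 to 6.3 (median 5.76) on YAMC arrays. No array of another group reached the mp53/Ras range. With a single oncogene Sema7a differed from YAMC by 0.15 (mp53, adjusted p = 0.389) and 0.68 (Ras, adjusted p = 1.73e-05) against YAMC and both together by 2.11, an interaction of 1.28 ± 0.17 (adjusted p = 1.14e-06; 1.27 over 36 arrays).

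Slc14a1, a urea transporter, and Fbxo17, a substrate adaptor of ubiquitin ligases, followed the same order in part. Slc14a1 had levels of 6.29 to 8.62 (median 7.68) on mp53/Ras arrays, 4.07 to 5.18 (median 4.55) on mp53 arrays and 4.75 to 6.81 (median 5.65) on Ras arrays, against 3.96 to 5.06 (median 4.60) on YAMC arrays. It was low on mp53 and YAMC arrays, which overlapped, intermediate on Ras arrays and highest on mp53/Ras arrays, whose lowest array fell within the Ras range (interaction 1.81 ± 0.31, adjusted p = 6.53e-05). Fbxo17 had levels of 7.31 to 8.19 (median 7.51) on mp53/Ras arrays, 5.90 to 7.08 (median 6.07) on mp53 arrays and 5.83 to 6.37 (median 6.06) on Ras arrays, against 6.68 to 7.11 (median 6.91) on YAMC arrays. Its mp53/Ras arrays lay above every array of these other 3 groups but overlapped the bleo/Neo arrays, at 6.99 to 7.76 (median 7.64), and mp53 and Ras differed from YAMC by -0.67 and -0.79 (interaction 2.17 ± 0.15, adjusted p = 1.23e-13).

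**Figure D2:**
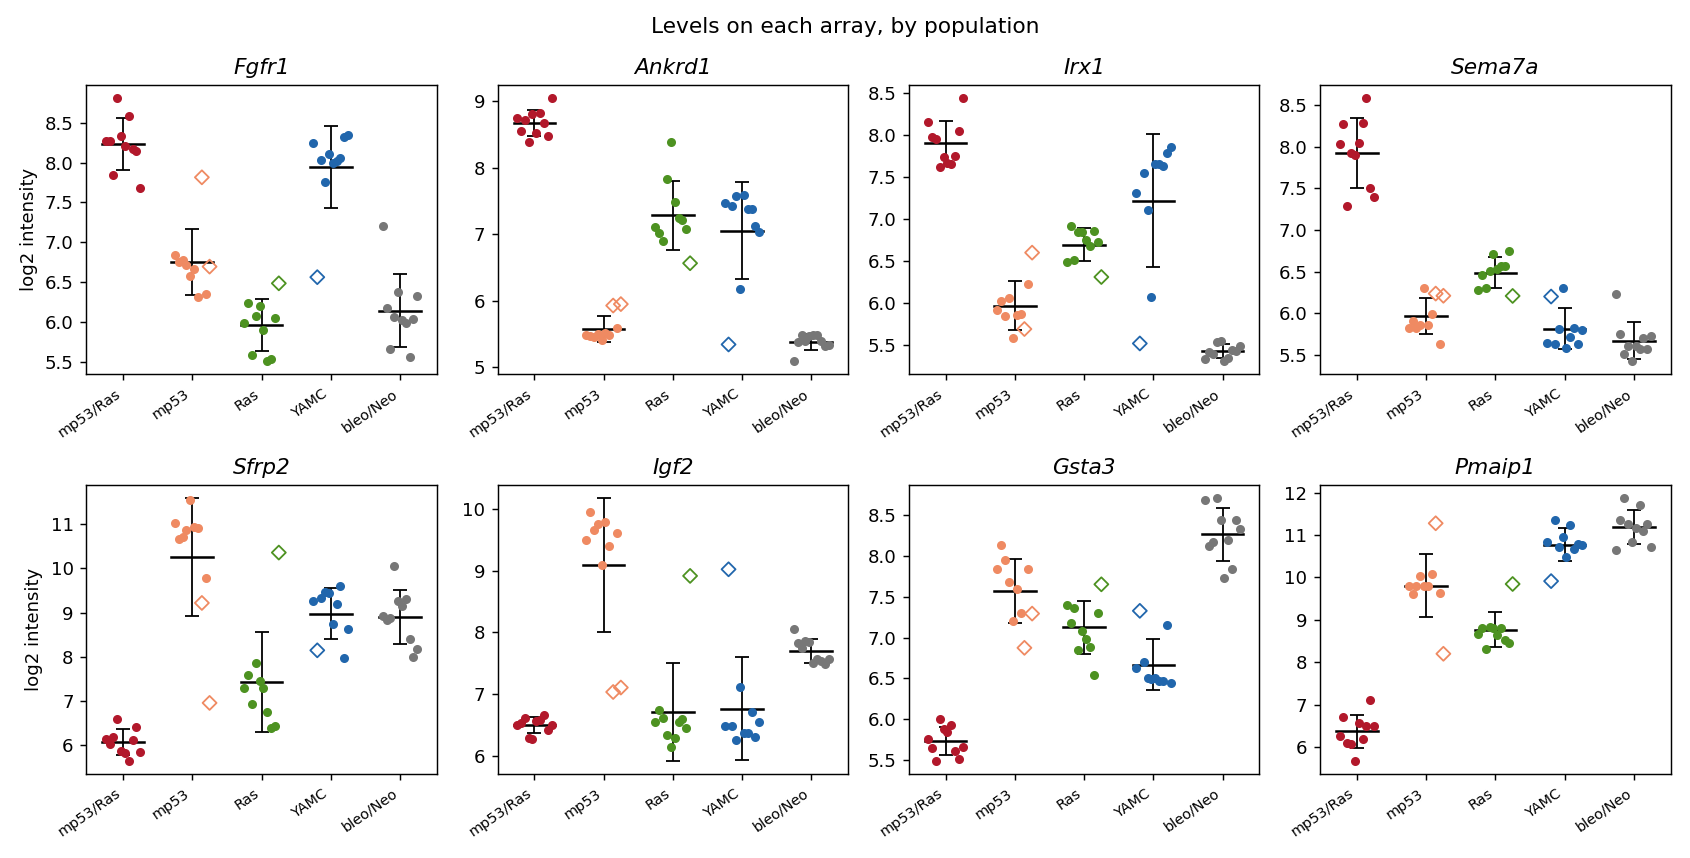
log2 intensity on each array (vertical axis) of 8 genes in which the infected populations differ among themselves. Groups are in the order mp53/Ras, mp53, Ras, YAMC and bleo/Neo. Points are arrays, open diamonds are the 4 arrays that lay nearest to another group, and bars are mean ± SD (n = 10). The mp53/Ras arrays of Sema7a and Ankrd1 sit at the top of their panels and those of Gsta3 and Pmaip1 at the bottom of the 4 groups.

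A separate set of positive genes was high in YAMC cells and low in every infected population. C1s1, a complement protease gene, had levels of 5.32 to 5.62 (median 5.37) on mp53/Ras arrays, 5.27 to 8.10 (median 5.44) on mp53 arrays and 5.05 to 5.70 (median 5.35) on Ras arrays, against 5.72 to 9.34 (median 8.49) on YAMC arrays. Leaving out mp53 replicate 8, at 8.10, and YAMC replicate 2, at 5.72, the remaining YAMC arrays lay at 7.87 or more and every infected array at or below 5.70. All 3 infected populations differed from YAMC by a like amount (-2.87, -2.59 and -2.96 for mp53/Ras, mp53 and Ras), and the interaction of 2.68 ± 0.40 (adjusted p = 9.47e-06; 3.25 over 36 arrays) is close to that amount with its sign turned. The bleo/Neo arrays, at 5.29 to 5.76 (median 5.59), were also low.

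Ltbp2, a matrix protein of the latent TGF-beta binding family, had levels of 4.42 to 4.81 (median 4.70) on mp53/Ras arrays, 4.73 to 6.72 (median 4.87) on mp53 arrays and 4.74 to 5.18 (median 4.86) on Ras arrays, against 4.66 to 9.33 (median 7.68) on YAMC arrays. YAMC was high and the infected populations low, apart from YAMC replicate 2 and mp53 replicate 8 (interaction 2.21 ± 0.40; 2.76 over 36 arrays). Dkk2, a secreted modulator of Wnt signalling, had levels of 6.41 to 7.58 (median 6.80) on mp53/Ras arrays, 5.86 to 9.04 (median 6.43) on mp53 arrays and 4.87 to 7.55 (median 6.09) on Ras arrays, against 7.50 to 9.21 (median 8.52) on YAMC arrays. Its YAMC arrays were highest, overlapped the other 3 groups over 40 arrays and lay above all of them over 36 (interaction 2.40 ± 0.39; 2.89 over 36 arrays). Slc7a3, a cationic amino acid transporter, showed the pattern on a smaller scale, with 5.22 to 5.63 (median 5.44) on mp53/Ras arrays, 5.10 to 7.01 (median 5.39) on mp53 arrays and 5.23 to 5.88 (median 5.50) on Ras arrays, against 6.25 to 8.05 (median 7.17) on YAMC arrays. Its interaction was 1.50 ± 0.23, adjusted p = 1.17e-05. The infected groups of Slc7a3 shared a range, and the bleo/Neo arrays lay with them at 5.07 to 6.04 (median 5.36).

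Icam1, the adhesion molecule that leukocyte integrins bind, had levels of 7.05 to 7.66 (median 7.23) on mp53/Ras arrays, 5.92 to 10.11 (median 6.29) on mp53 arrays and 7.26 to 8.89 (median 8.53) on Ras arrays, against 7.27 to 11.15 (median 10.44) on YAMC arrays. The YAMC arrays were highest, Ras arrays intermediate and mp53 arrays lowest by median, and without the 4 arrays named above the YAMC, Ras and mp53 arrays did not overlap. Icam1 had an interaction of 2.14 ± 0.55 (adjusted p = 0.00658), and 2.96 over 36 arrays. Misp3 had levels of 5.37 to 6.13 (median 5.78) on mp53/Ras arrays, 4.79 to 7.0 (median 5.04) on mp53 arrays and 4.53 to 5.31 (median 4.98) on Ras arrays, against 6.09 to 7.51 (median 6.88) on YAMC arrays, with YAMC highest and Ras lowest by median (interaction 2.45 ± 0.26, adjusted p = 7.79e-09). Aldh1l2, a mitochondrial enzyme of folate metabolism, had levels of 7.91 to 9.88 (median 8.37) on mp53/Ras arrays, 7.63 to 9.60 (median 7.98) on mp53 arrays and 6.08 to 9.01 (median 6.76) on Ras arrays, against 8.12 to 10.85 (median 8.70) on YAMC arrays. Over all replicates the groups of Aldh1l2 overlapped, and its interaction of 2.22 ± 0.51 (adjusted p = 0.00231) had one of the larger standard errors among the leading genes. Its level went with replicate number in some groups. Replicates 1 to 7 and 8 to 10 lay at 6.08 to 6.83 and 8.29 to 9.01 on Ras arrays. On bleo/Neo arrays they lay at 6.38 to 7.11 and 8.98 to 9.49, and on mp53 arrays at 7.63 to 8.40 and 8.53 to 9.60. The mp53/Ras and YAMC arrays were not divided in this way. The cause was not tested.

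Adcy3, an adenylyl cyclase that makes the second messenger cAMP, was lower by median in mp53 and Ras cells than in YAMC cells, and less so in mp53/Ras cells. The bleo/Neo arrays of Adcy3, at 6.93 to 7.52, also lay below every YAMC array. Its levels were 7.44 to 7.86 (median 7.75) on mp53/Ras arrays, 6.69 to 8.12 (median 6.74) on mp53 arrays and 6.81 to 7.17 (median 6.93) on Ras arrays, against 7.58 to 8.44 (median 8.25) on YAMC arrays, and its interaction was 2.02 ± 0.17, with 3 further probe sets at 0.25, 1.10 and 2.43. Cachd1, a protein related to calcium channel subunits, had levels of 7.09 to 7.66 (median 7.43) on mp53/Ras arrays, 6.11 to 7.53 (median 6.28) on mp53 arrays and 6.01 to 6.41 (median 6.31) on Ras arrays, against 6.93 to 7.48 (median 7.18) on YAMC arrays. The mp53/Ras arrays of Cachd1 overlapped the YAMC arrays and the Ras arrays lay below them (interaction 1.88 ± 0.17; a second probe set gave 0.83). Hoxd10, a homeobox gene of the posterior body axis, had levels of 7.11 to 8.10 (median 7.65) on mp53/Ras arrays, 5.18 to 8.64 (median 5.61) on mp53 arrays and 6.23 to 8.62 (median 7.92) on Ras arrays, against 6.83 to 8.67 (median 8.19) on YAMC arrays. By median mp53 was lowest, with replicates 5, 8 and 10 inside the range of at least 1 other group. The other 3 groups overlapped, with mp53 minus YAMC at -2.03 (adjusted p = 3.88e-06), mp53/Ras minus YAMC at -0.48 (adjusted p = 0.164) and an interaction of 1.86 ± 0.42.

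The most negative interaction was that of Mycn, a MYC family transcription factor, and it rests on 1 of its 3 probe sets. That probe set read 13.98 to 14.16 (median 14.07) on mp53/Ras arrays, 7.16 to 13.98 (median 13.90) on mp53 arrays and 13.67 to 13.89 (median 13.86) on Ras arrays, against 7.53 to 13.82 (median 7.65) on YAMC arrays. Every infected array but mp53 replicate 8, at 7.16, lay between 13.67 and 14.16, and every YAMC array but YAMC replicate 2, at 13.82, lay between 7.53 and 8.5. The bleo/Neo arrays, at 13.19 to 13.66 (median 13.53), were also high. The interaction was -4.66 ± 0.86 (adjusted p = 0.000173) and -5.95 over 36 arrays. The other 2 probe sets showed no such step, with medians of 7.26 and 7.10 on mp53/Ras arrays, against 8.18 and 7.04 on YAMC arrays, so these values are not taken as a level of Mycn. What the first probe set hybridised to was not tested.

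Gsta3, a glutathione transferase of detoxification, was lowest in mp53/Ras cells. Its levels were 5.49 to 6.0 (median 5.70) on mp53/Ras arrays, 6.88 to 8.13 (median 7.64) on mp53 arrays and 6.55 to 7.65 (median 7.14) on Ras arrays, against 6.44 to 7.33 (median 6.51) on YAMC arrays. Every mp53/Ras array lay below every array of the other 3 groups. Against YAMC, Gsta3 was higher with mp53 alone, by 0.90 (adjusted p = 3.86e-06), and with Ras alone, by 0.46 (adjusted p = 0.00524). With both it was lower (-0.94, adjusted p = 1.39e-07), an interaction of -2.30 ± 0.19 (adjusted p = 1.14e-11, and -2.44 over 36 arrays). The bleo/Neo arrays, at 7.73 to 8.72, lay above every YAMC and Ras array and overlapped the mp53 arrays. The list of glutathione and antioxidant genes had 0 of 25 tested members positive and 6 negative (24% called, beside 12.6% over all tested genes; 1 and 9 over 36 arrays), with a median of -0.18. The negative ones besides Gsta3 were Gstm1, another transferase (-0.88 ± 0.23), the glutathione peroxidases Gpx2 (-0.54 ± 0.09) and Gpx3 (-0.43 ± 0.13), the glutathione synthetase Gss (-0.39 ± 0.09) and the aldo-keto reductase Akr1b8 (-0.31 ± 0.11). Mgst2, a microsomal glutathione transferase outside that list, had levels of 7.79 to 8.56 (median 8.23) on mp53/Ras arrays, 7.54 to 9.18 (median 8.96) on mp53 arrays and 8.39 to 9.49 (median 8.81) on Ras arrays, against 7.42 to 8.58 (median 7.71) on YAMC arrays. Its interaction was -1.76 ± 0.23, adjusted p = 4.78e-07. Mgst2 was lowest by median on YAMC arrays, and the mp53/Ras arrays lay between them and the single-oncogene arrays, with overlap.

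The p53 target genes gave 1 of 33 tested members positive and 8 negative (27.3% called, beside 12.6% over all tested genes; 4 and 8 over 36 arrays) and a median of -0.16, beside -0.00 over all tested genes. Pmaip1, which encodes the death-promoting protein NOXA, had levels of 5.68 to 7.11 (median 6.37) on mp53/Ras arrays, 8.2 to 11.28 (median 9.80) on mp53 arrays and 8.30 to 9.84 (median 8.73) on Ras arrays, against 9.91 to 11.36 (median 10.78) on YAMC arrays. The mp53/Ras arrays lay below every other array, and mp53 and Ras alone differed from YAMC by -0.98 and -2.01 (adjusted p = 0.000873 and 9.21e-10). The difference with both, -4.41, was larger in size than their sum (interaction -1.42 ± 0.31, adjusted p = 0.00115). On linear intensities the same contrast was positive, 438.6 units, and not called (adjusted p = 0.219). Fas, a death receptor, had levels of 8.74 to 9.27 (median 8.88) on mp53/Ras arrays, 9.56 to 10.19 (median 9.88) on mp53 arrays and 9.76 to 10.34 (median 10.07) on Ras arrays, against 10.15 to 10.84 (median 10.39) on YAMC arrays. Here mp53/Ras lay again below every other array (interaction -0.63 ± 0.13, adjusted p = 0.000866). Trp53inp1, a p53-induced nuclear protein, had levels of 11.79 to 12.10 (median 11.89) on mp53/Ras arrays, 12.49 to 12.89 (median 12.62) on mp53 arrays and 12.24 to 12.64 (median 12.43) on Ras arrays, against 12.26 to 12.90 (median 12.60) on YAMC arrays. Here mp53 and YAMC arrays overlapped and mp53/Ras arrays were all lower (interaction -0.57 ± 0.08, adjusted p = 3.04e-06).

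Other called members of the p53 list were smaller or more variable. Of its 8 negative members 7 were called in both fits, and not every member is named here. Rprm, a mediator of arrest in the second gap phase, had -1.06 ± 0.26, Pidd1, a death domain protein, -0.46 ± 0.12, and Zmat3, an RNA-binding target, -0.39 ± 0.09. Cdkn1a, the p21 inhibitor of cyclin-dependent kinases, was bright in all groups (13.39 mean on mp53/Ras arrays, 13.73 on mp53 arrays and 13.66 on Ras arrays, against 13.73 on YAMC arrays) and had an interaction of -0.28 ± 0.05. Plk2, a serum-responsive kinase, was the 1 positive member (0.44 ± 0.11). Among BCL2 family genes and death receptors, which share Pmaip1 and Fas with that list, 1 of 21 tested members were positive and 4 negative (23.8% called; 1 and 4 over 36 arrays). The positive one was the survival gene Bcl2 (0.59 ± 0.16), of which another probe set gave 0.03, and Casp9, an initiator caspase, was negative (-0.55 ± 0.12; another probe set -0.05).

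Arhgap24, a GTPase-activating protein for Rac, and Tent5c, a noncanonical poly(A) polymerase, also had their lowest levels in mp53/Ras cells. Arhgap24 had levels of 6.76 to 7.36 (median 6.98) on mp53/Ras arrays, 9.52 to 10.96 (median 10.22) on mp53 arrays and 8.69 to 10.42 (median 9.15) on Ras arrays, against 10.39 to 11.04 (median 10.80) on YAMC arrays. Here mp53/Ras lay far below all others (interaction -1.67 ± 0.20, adjusted p = 1.51e-07). A second probe set of Arhgap24 gave -0.37, and the contrast on linear intensities was 38.5 units, positive and not called (adjusted p = 0.907). Tent5c had levels of 5.24 to 5.90 (median 5.63) on mp53/Ras arrays, 7.28 to 9.24 (median 9.07) on mp53 arrays and 6.08 to 9.39 (median 7.08) on Ras arrays, against 8.34 to 9.15 (median 8.71) on YAMC arrays. Here mp53 and YAMC arrays overlapped, Ras arrays were mostly lower and mp53/Ras arrays were lowest (interaction -1.60 ± 0.33, adjusted p = 0.000731). Cldn15, a tight junction claudin, had levels of 7.07 to 7.36 (median 7.18) on mp53/Ras arrays, 7.60 to 8.30 (median 7.93) on mp53 arrays and 7.69 to 8.47 (median 8.08) on Ras arrays, against 7.08 to 7.67 (median 7.19) on YAMC arrays. Its mp53/Ras arrays lay below every mp53 and Ras array and overlapped the YAMC arrays (interaction -1.54 ± 0.13, adjusted p = 1.14e-11).

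The next 5 leading negative genes were high in mp53 cells and low in mp53/Ras cells. Igf2, the imprinted insulin-like growth factor, had levels of 6.27 to 6.66 (median 6.51) on mp53/Ras arrays, 7.03 to 9.95 (median 9.55) on mp53 arrays and 6.14 to 8.92 (median 6.54) on Ras arrays, against 6.25 to 9.02 (median 6.48) on YAMC arrays. Over 36 arrays all mp53 arrays lay at 9.09 or more and no mp53/Ras, Ras or YAMC array above 7.12. For Igf2, mp53 alone differed from YAMC by 2.33 (adjusted p = 2.57e-06) and Ras alone by -0.05 (adjusted p = 0.919). Ras in mp53 cells went with a difference of -2.60, an interaction of -2.55 ± 0.47 (-3.06 over 36 arrays). The bleo/Neo arrays of Igf2 lay at 7.48 to 8.06. Sfrp2, a secreted Wnt antagonist, had levels of 5.66 to 6.61 (median 6.08) on mp53/Ras arrays, 6.96 to 11.53 (median 10.78) on mp53 arrays and 6.39 to 10.36 (median 7.30) on Ras arrays, against 7.98 to 9.61 (median 9.23) on YAMC arrays. mp53 was highest, YAMC next, Ras lower and mp53/Ras lowest by median (interaction -2.64 ± 0.55, adjusted p = 0.00088). Plagl1, an imprinted zinc finger gene that arrests growth, had levels of 5.21 to 6.86 (median 6.25) on mp53/Ras arrays, 7.45 to 11.94 (median 11.52) on mp53 arrays and 5.66 to 10.54 (median 6.70) on Ras arrays, against 9.0 to 10.21 (median 9.49) on YAMC arrays, with mp53/Ras and Ras low and mp53 and YAMC high apart from the arrays named above (interaction -2.24 ± 0.61, adjusted p = 0.00999). The second probe set of Plagl1 gave 0.00, so this value rests on 1 probe set.

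Abi3bp, a matrix-associated protein, had levels of 4.32 to 5.01 (median 4.63) on mp53/Ras arrays, 5.09 to 8.23 (median 7.73) on mp53 arrays and 4.51 to 7.81 (median 4.99) on Ras arrays, against 5.13 to 6.55 (median 6.0) on YAMC arrays. By median mp53 was highest and mp53/Ras lowest (interaction -2.04 ± 0.44, adjusted p = 0.00114). Tbc1d9, a protein with a Rab GTPase-activating domain, had levels of 5.65 to 5.98 (median 5.81) on mp53/Ras arrays, 6.66 to 8.34 (median 7.97) on mp53 arrays and 5.86 to 8.01 (median 6.20) on Ras arrays, against 6.21 to 7.08 (median 6.56) on YAMC arrays, in the same order but with Ras and YAMC overlapping (interaction -1.59 ± 0.28, adjusted p = 0.000104). The IGF system and imprinted genes as a list gave 2 of 19 tested members positive and 4 negative (31.6% called; 3 and 7 over 36 arrays), with a median of -0.02. Besides Igf2 and Plagl1 the negative ones were the scavenging receptor Igf2r (-0.54 ± 0.17) and the kinase inhibitor Cdkn1c (-0.54 ± 0.14), and the positive ones the IGF-binding protein Igfbp7 (0.91 ± 0.19; another probe set -0.10) and the imprinted Dlk1 (0.29 ± 0.10).

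Among the 4 groups of the contrast Ras arrays were highest by median for the epithelial genes Krt15 and Ivl. Krt15, a keratin of basal epithelial cells, had levels of 7.41 to 8.05 (median 7.65) on mp53/Ras arrays, 6.21 to 8.66 (median 6.98) on mp53 arrays and 7.05 to 9.47 (median 8.69) on Ras arrays, against 6.01 to 6.41 (median 6.24) on YAMC arrays. The YAMC arrays were lowest by median and the mp53/Ras arrays lay between Ras and mp53 arrays by median (interaction -1.88 ± 0.28, adjusted p = 1.03e-05). Ivl, involucrin of the squamous cell envelope, had levels of 8.38 to 8.88 (median 8.82) on mp53/Ras arrays, 7.13 to 10.91 (median 7.55) on mp53 arrays and 7.59 to 11.45 (median 10.96) on Ras arrays, against 6.02 to 9.28 (median 8.29) on YAMC arrays. Over 36 arrays every Ras array lay at 10.76 or more and no mp53/Ras, mp53 or YAMC array above 9.28. Ras in mp53 cells differed from mp53 by 0.72 (adjusted p = 0.127), against 2.41 in YAMC cells, an interaction of -1.69 ± 0.56 (adjusted p = 0.0381; -1.26 over 36 arrays). The bleo/Neo arrays were high as well, at 7.43 to 9.34 (median 8.04) for Krt15 and 9.40 to 10.49 (median 10.02) for Ivl, and with bleo/Neo as baseline the interactions were 0.08 and 0.02. Of the other squamous markers, Krt5, Krt6a, Krt14 and Lor were not called. The list of epithelial junctions and keratins had 0 of 21 tested members positive and 6 negative (28.6% called, beside 12.6% over all tested genes; 2 and 7 over 36 arrays), with a median of -0.21 (-0.17 over 36 arrays). It included Krt7 (-1.11 ± 0.24), the simple-epithelial pair Krt8 (-0.51 ± 0.14) and Krt18 (-0.63 ± 0.20), and the splicing regulator Esrp2 (-0.53 ± 0.14). Krt8 and Krt18 were highest with both oncogenes and lowest in YAMC, and fell short of the sum. On linear intensities the Krt18 contrast was 99.3 units, positive and not called.

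**Figure D3:**
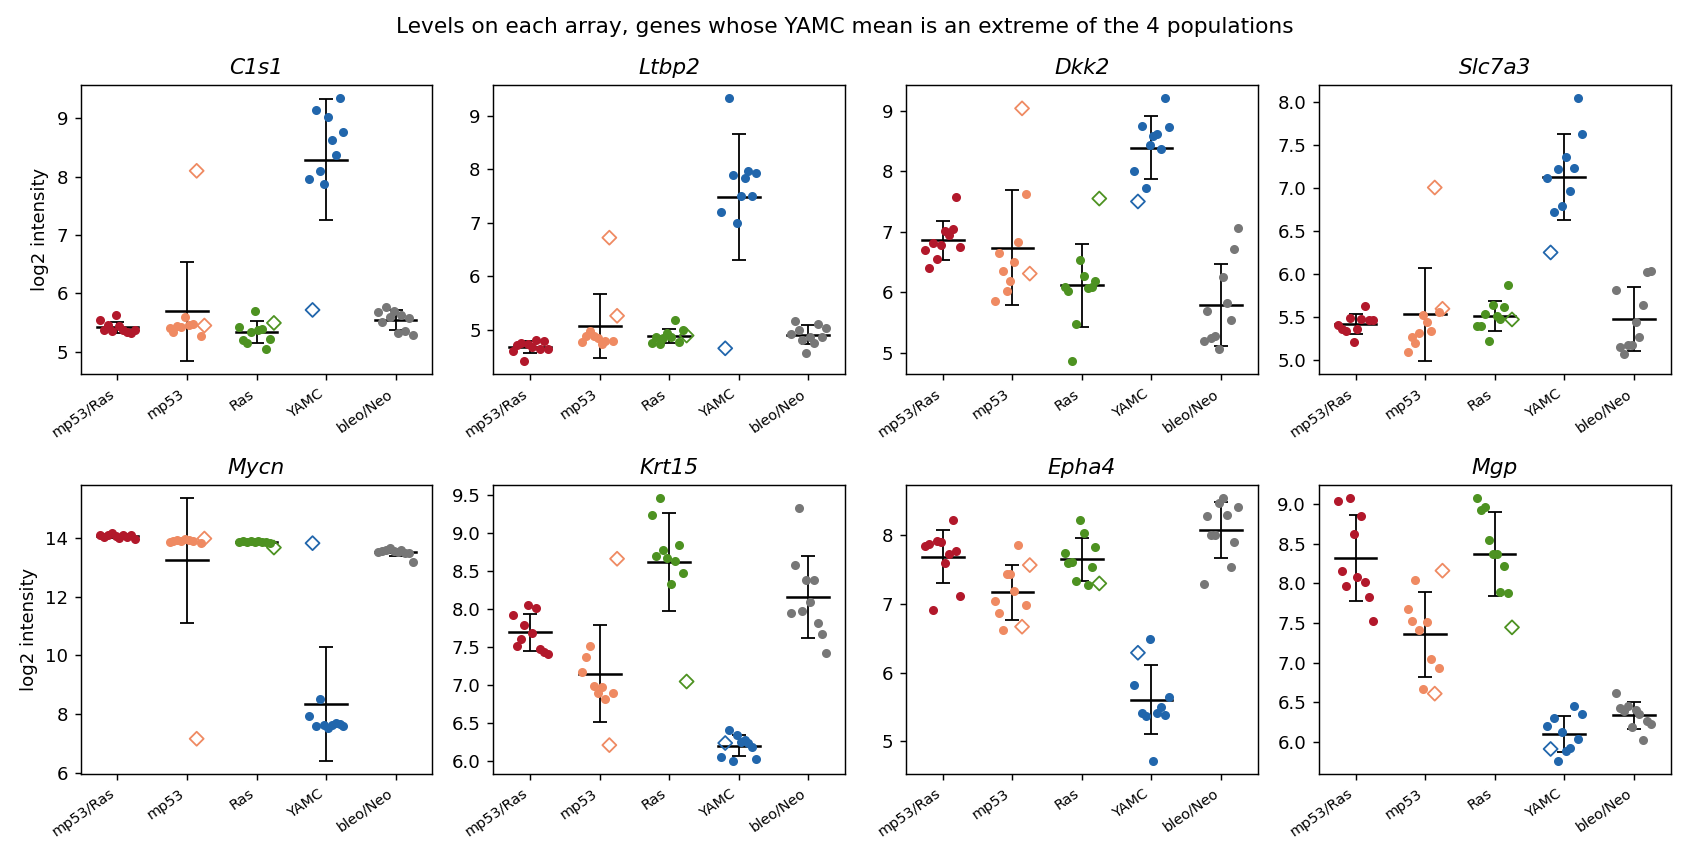
log2 intensity on each array (vertical axis) of 8 genes in which YAMC differs from the infected populations, by group in the order mp53/Ras, mp53, Ras, YAMC and bleo/Neo. Points are arrays, open diamonds are the 4 arrays that lay nearest to another group, and bars are mean ± SD (n = 10). In the panels of C1s1, Ltbp2, Slc7a3 and the Mycn probe set the bleo/Neo arrays sit with the infected arrays and apart from YAMC, and in the panel of Mgp they sit with YAMC.

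YAMC lay at the bottom for Epha4 and Mgp. Epha4, a receptor tyrosine kinase for ephrins, had levels of 6.92 to 8.23 (median 7.81) on mp53/Ras arrays, 6.62 to 7.87 (median 7.11) on mp53 arrays and 7.28 to 8.23 (median 7.60) on Ras arrays, against 4.72 to 6.50 (median 5.46) on YAMC arrays, with every infected array above every YAMC array (interaction -1.52 ± 0.25, adjusted p = 3.00e-05; a second probe set gave -0.35). Mgp, a matrix inhibitor of calcification, had levels of 7.53 to 9.08 (median 8.11) on mp53/Ras arrays, 6.61 to 8.16 (median 7.46) on mp53 arrays and 7.44 to 9.08 (median 8.37) on Ras arrays, against 5.77 to 6.46 (median 6.08) on YAMC arrays. The YAMC arrays were below every array of the other 3 groups but overlapped the bleo/Neo arrays (6.02 to 6.62 (median 6.37)), with mp53 arrays intermediate by median and the groups with Ras overlapping (interaction -1.31 ± 0.29, adjusted p = 0.00134). The list of semaphorins, ephrins and Eph receptors had 2 of 27 tested members positive and 6 negative (29.6% called; 3 and 7 over 36 arrays) (median -0.17). Besides Epha4, the negative ones included the kinase-dead receptor Ephb6 (-1.25 ± 0.18), the semaphorin receptor Plxnd1 (-0.91 ± 0.17) and Sema6d (-0.54 ± 0.17).

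Glycolysis and hypoxia genes gave 7 of 33 tested members positive and 0 negative (21.2% called, beside 12.6% over all tested genes; 9 and 2 over 36 arrays), with a median of 0.13. Slc2a3, the glucose transporter GLUT3, had levels of 6.59 to 7.42 (median 7.09) on mp53/Ras arrays, 6.67 to 8.74 (median 7.73) on mp53 arrays and 5.89 to 8.44 (median 6.43) on Ras arrays, against 7.88 to 9.42 (median 8.66) on YAMC arrays. It was highest in YAMC and lowest with Ras by median (interaction 1.45 ± 0.33, adjusted p = 0.00187). Slc16a3, the lactate exporter MCT4, had the other arrangement, with means of 8.37 on mp53/Ras arrays, 6.40 on mp53 arrays and 7.13 on Ras arrays, against 6.08 on YAMC arrays (interaction 0.93 ± 0.26, adjusted p = 0.0117). The glycolytic enzyme genes Hk2 (0.78 ± 0.23), Pfkl (0.64 ± 0.20), Pfkp (0.57 ± 0.16) and Eno3 (0.56 ± 0.18) and the collagen hydroxylase P4ha1 (0.84 ± 0.24) were also positive. Of 29 tested subunits of oxidative phosphorylation, 1 was positive and 0 negative, namely Uqcrc1 (0.39 ± 0.10).

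Matrix genes moved both ways, with 17.6% to 25.9% of the members of each list called, beside 12.6% over all tested genes. Basement membrane genes had 3 of 16 tested members positive and 0 negative (18.8% called; 4 and 0 over 36 arrays) (median 0.14), namely the collagen chain Col4a4 (1.78 ± 0.35), nidogen Nid1 (1.35 ± 0.34; another probe set 0.22) and the laminin chain Lamb3 (0.54 ± 0.18). Col4a4 and Nid1 were highest in YAMC and Lamb3 in mp53/Ras, at means of 8.33, 8.95 and 6.64. Matrix glycoproteins and proteoglycans had 5 of 27 tested members positive and 2 negative (25.9% called; 7 and 4 over 36 arrays), the positive ones being Ltbp2, the lysyl oxidase Loxl1 (0.84 ± 0.18), fibulin Fbln5 (0.63 ± 0.20), biglycan Bgn (0.49 ± 0.09) and thrombospondin Thbs2 (0.37 ± 0.10), and the negative ones Mgp and the CCN protein Ccn3 (-1.36 ± 0.22). Among collagens 1 of 17 tested members were positive and 2 negative (17.6% called; 2 and 1 over 36 arrays). Matrix proteases and their inhibitors had 2 of 21 tested members positive and 3 negative (23.8% called; 3 and 7 over 36 arrays). Mmp10, the protease stromelysin 2, was highest with Ras alone, at means of 7.65 on mp53/Ras arrays, 6.63 on mp53 arrays and 8.61 on Ras arrays, against 6.31 on YAMC arrays (interaction -1.28 ± 0.24, adjusted p = 0.000186).

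Developmental regulators also moved both ways. Hox genes had 5 of 24 tested members positive and 2 negative (29.2% called, beside 12.6% over all tested genes; 8 and 3 over 36 arrays) and a median of 0.17. Positive besides Hoxd10 were Hoxc10 (1.35 ± 0.24), Hoxd9 (0.83 ± 0.14), Hoxd11 (0.73 ± 0.17) and Hoxc4 (0.34 ± 0.10), and negative were Hoxc13 (-0.91 ± 0.12) and Hoxb4 (-0.45 ± 0.09). Of the T-box, Zic and other developmental factors 2 of 24 tested members were positive and 4 negative (25% called; 4 and 7 over 36 arrays), with the forkhead gene Foxf2 (1.0 ± 0.14) and Zic1 (0.91 ± 0.30) positive and Eya1 (-0.76 ± 0.13) and Meis1 (-0.75 ± 0.21; another probe set 0.06) negative. The YAP target list, which also holds Foxf2, had 3 of 20 tested members positive and 0 negative (15% called; 4 and 0 over 36 arrays) with a median of 0.24; Ankrd1 and Amotl2, an angiomotin family member (0.63 ± 0.18), were the others. The YAP targets Ccn1 and Ccn2 had values of 0.23 ± 0.11 and 0.26 ± 0.11 and were not called.

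Signalling lists moved both ways. The Wnt pathway had 3 of 23 tested members positive and 4 negative (30.4% called; 5 and 3 over 36 arrays), led by Dkk2, Sfrp2, the antagonist Sfrp1 (1.60 ± 0.17, with other probe sets between 0.23 and 2.54) and the ligand Wnt4 (-1.10 ± 0.25). The TGF-beta and BMP list had 3 of 26 tested members positive and 3 negative (23.1% called; 4 and 4 over 36 arrays), including the ligand subunit Inhba (0.89 ± 0.15), the antagonist Nog (0.58 ± 0.20) and the BMP-induced inhibitors of differentiation Id2 and Id4 (-1.45 ± 0.42). Id2 had levels of 7.55 to 8.33 (median 7.67) on mp53/Ras arrays, 8.74 to 10.18 (median 9.43) on mp53 arrays and 8.5 to 9.94 (median 9.23) on Ras arrays, against 6.99 to 10.58 (median 10.02) on YAMC arrays. Apart from YAMC replicate 2 the YAMC arrays lay at 9.18 or more, and the mp53/Ras arrays were lowest by median (interaction -1.24 ± 0.36; -0.98 over 36 arrays). The Notch list had 0 of 16 tested members positive and 3 negative (18.8% called; 1 and 4 over 36 arrays), the transcriptional repressors Hes6 (-0.49 ± 0.12), Hey1 (-0.50 ± 0.16) and Hey2 (-0.54 ± 0.17); Hey2 turned to 2.22 units on linear intensities. MAPK feedback and ERK-induced genes had 1 of 30 tested members positive and 2 negative (10% called; 6 and 3 over 36 arrays), with Etv5, an ERK-induced ETS factor, at 0.88 ± 0.26 (other probe sets 0.14 and 0.22), Jund, an AP-1 subunit, at -0.53 ± 0.17 and Ier3 at -0.47 ± 0.16.

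Cell cycle genes were called in both directions, with 6.9% to 18.8% of the members of each list called, beside 12.6% over all tested genes. Of mitosis and G2/M genes 3 of 27 tested members were positive and 1 negative (14.8% called, beside 12.6% over all tested genes; 7 and 1 over 36 arrays), with a median of 0.24; the cyclins Ccnb2 (0.66 ± 0.17) and Ccna2 (0.52 ± 0.15) and the checkpoint kinase Ttk (0.56 ± 0.17) were positive. Of DNA replication genes 0 of 29 tested members were positive and 2 negative (6.9% called; 1 and 2 over 36 arrays), the helicase subunit Mcm2 (-0.41 ± 0.10) and the ligase Lig1 (-0.47 ± 0.15). Of G1 regulators 0 of 16 tested members were positive and 3 negative (18.8% called; 0 and 5 over 36 arrays), which included Rb1, the retinoblastoma gene (-0.66 ± 0.14). Over 40 arrays no member was called among 24 ribosomal proteins and translation factors, 21 cholesterol synthesis genes and 20 mesenchymal transition genes. Over 36 arrays the positive and negative counts were 1 and 2, 1 and 0 and 4 and 0 for these lists. The unfolded protein and amino acid response list had 3 of 30 tested members positive and 0 negative (10% called; 4 and 0 over 36 arrays): Slc7a3, the chaperone Hspa5 (0.49 ± 0.16) and the secreted factor Manf (0.47 ± 0.10). Of type I interferon genes 1 of 26 tested members were positive and 1 negative (7.69% called; 7 and 1 over 36 arrays), with a median of 0.07 over 40 and 0.26 over 36 arrays; the calls over 40 were Oas2 (1.03 ± 0.32) and Ifi35 (-0.33 ± 0.07). Chemokines and cytokines had 2 of 25 tested members positive and 2 negative (16% called; 3 and 2 over 36 arrays), among them the macrophage growth factor Csf1 (0.64 ± 0.14) and the monocyte chemokine Ccl7 (-0.79 ± 0.16).

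**Figure D4:**
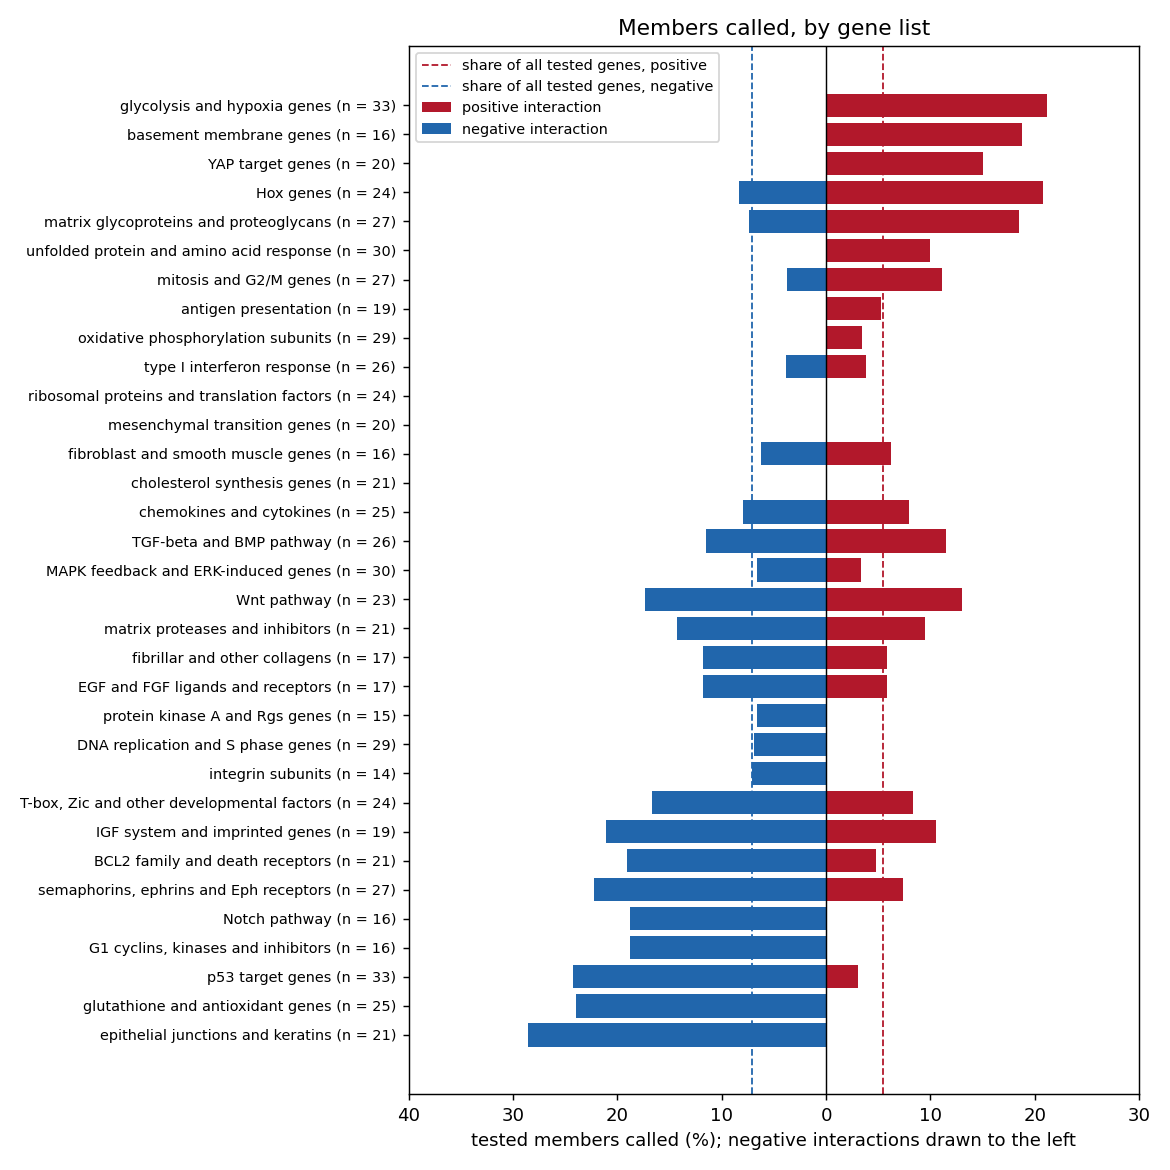
Share of the tested members of each gene list (horizontal axis, percent) with a positive and with a negative called interaction over 40 arrays. Dashed lines mark the shares over all 12730 tested genes, 5.47% positive and 7.12% negative. Glycolysis and hypoxia genes have 7 of 33 members positive and 0 negative, and glutathione genes 0 positive and 6 of 25 negative.

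Markers of other cell types were examined beside these lists. Of the endothelial markers 3 of 3 tested, of 10 listed, were positive: the junction protein Esam and the VEGF receptors Flt1 (0.77 ± 0.10) and Kdr (0.70 ± 0.14). The defining markers Pecam1, Cdh5, Vwf, Tie1, Emcn and Cldn5 were above the median of the table on 0 of 40 arrays. The summed log2 level of the list was 59.6 to 61.1 on mp53/Ras arrays, 58.9 to 60.7 on mp53 arrays and 58.5 to 59.5 on Ras arrays, against 57.6 to 60.4 on YAMC arrays. Esam had levels of 8.04 to 8.48 (median 8.32) on mp53/Ras arrays, 6.51 to 7.37 (median 6.85) on mp53 arrays and 7.04 to 7.48 (median 7.42) on Ras arrays, against 6.78 to 7.07 (median 6.87) on YAMC arrays. Its mp53/Ras arrays lay above every array of these other 3 groups (interaction 0.97 ± 0.10, adjusted p = 2.38e-09). The bleo/Neo arrays of Esam were higher still, at 8.58 to 9.70 (median 9.59). Among neural markers Stmn4, a stathmin, was negative (-1.13 ± 0.16) and Gfap positive (0.33 ± 0.11), and among immune markers Lyz2 was positive (0.23 ± 0.07). Of 11 immune markers on the array 6 passed the filter, with Cd3e, Cd4, Cd8a, Cd68 and Csf1r above the median on 40 of 40 arrays, whereas the leukocyte gene Ptprc and the myeloid genes Itgam and Adgre1 were above it on 0. The summed log2 level of the immune markers was 71.8 to 73.5 on mp53/Ras arrays, 70.5 to 73.8 on mp53 arrays and 71.9 to 74.9 on Ras arrays, against 71.4 to 74.4 on YAMC arrays. The part of other cell types in the results was not tested.

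Sex chromosome transcripts differed among the populations as well. Kdm5d, a Y-linked histone demethylase, had levels of 5.33 to 6.38 (median 5.83) on mp53/Ras arrays, 6.90 to 7.93 (median 7.40) on mp53 arrays and 5.59 to 8.2 (median 6.85) on Ras arrays, against 6.15 to 7.55 (median 6.89) on YAMC arrays. The mp53/Ras arrays were lowest by median and below all mp53 arrays (interaction -1.68 ± 0.29, adjusted p = 6.05e-05). The Y-linked genes Uty (-1.14 ± 0.30) and Eif2s3y (-0.92 ± 0.26) were also negative, and Xist, the RNA that coats an inactive X chromosome, was positive (1.37 ± 0.35, adjusted p = 0.00557). Xist levels were 8.31 to 9.91 (median 9.41) on mp53/Ras arrays, 6.64 to 8.98 (median 6.99) on mp53 arrays and 7.97 to 10.02 (median 8.83) on Ras arrays, against 7.31 to 8.76 (median 8.19) on YAMC arrays. On the bleo/Neo arrays Kdm5d, Uty and Eif2s3y lay at 3.43 to 4.35 (median 3.60), 3.47 to 3.82 (median 3.55) and 3.46 to 3.92 (median 3.75), below every array of the other populations. The share of cells with a Y chromosome in each population was not measured, and its part in the other differences was not tested; in bulk samples fewer cells and less RNA per cell cannot be told apart.

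The same contrast with the vector population in place of YAMC, mp53/Ras minus mp53 minus Ras plus bleo/Neo, called 2991 genes (23.5%), 1452 positive (11.4%) and 1539 negative (12.1%). Both contrasts share all mp53/Ras, mp53 and Ras arrays, and their difference is YAMC minus bleo/Neo, which was itself called for 4727 genes (37.1%). For C1s1 the interaction was 2.68 with YAMC and -0.07 with bleo/Neo, and the baselines differed by 2.75 ± 0.26 (adjusted p = 2.12e-12). For Ltbp2 the values were 2.21 and -0.36, for Slc7a3 1.50 and -0.15, for Dkk2 2.40 and -0.21, for Krt15 -1.88 and 0.08, and for the Mycn probe set -4.66 and 0.49. YAMC minus bleo/Neo passed the test in each of these genes. The same held for Icam1 (2.14 and 0.14), Irx1 (2.45 and 0.66), Aldh1l2 (2.22 and 0.55), Abi3bp (-2.04 and 0.19) and Ivl (-1.69 and 0.02). For Cldn15 the sign differed, -1.54 with YAMC and 1.79 with bleo/Neo, where the vector cells read 9.79 to 11.13 (median 10.74) (YAMC minus bleo/Neo -3.33 ± 0.12, adjusted p = 2.75e-29). Epha4 also changed sign (-1.52 and 0.95), and so did Slc2a3 (1.45 and -2.32). Of the list medians, those of epithelial junctions and keratins (-0.21 and 0.03) and of glycolysis and hypoxia genes (0.13 and -0.12) changed sign. Basement membrane genes (0.14 and -0.31) and matrix glycoproteins (0.03 and -0.63) did so too. YAP targets had 0.24 and 0.02. The sign and most of the size were kept for p53 targets (-0.16 and -0.22), glutathione genes (-0.18 and -0.15) and mitosis genes (0.24 and 0.20).

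For Misp3, Sfrp2, Slc14a1, Sema7a, Tent5c, Arhgap24, Mgp and Pmaip1 the baselines differed by 0.42 or less in size. Misp3 had 2.45 with YAMC and 2.38 with bleo/Neo, and YAMC minus bleo/Neo was 0.07 ± 0.17 (adjusted p = 0.773). Sfrp2 had -2.64 and -2.72, Slc14a1 1.81 and 1.69, Sema7a 1.28 and 1.14, Tent5c -1.60 and -1.33, Arhgap24 -1.67 and -1.43, Mgp -1.31 and -1.07, and Pmaip1 -1.42 and -1.0. Ankrd1 kept its sign at a smaller size (2.86 and 1.20), with its bleo/Neo arrays at 5.10 to 5.49 (median 5.40). Fgfr1 behaved likewise (3.46 and 1.67), as did Gsta3 (-2.30 and -0.70), Adcy3 (2.02 and 1.01) and Igf2 (-2.55 and -1.62). The size was larger with bleo/Neo for Plagl1 (-2.24 and -6.82), whose bleo/Neo arrays lay at 4.56 to 5.67 (median 4.87), for Kdm5d (-1.68 and -4.82), Tbc1d9 (-1.59 and -3.42) and Mgst2 (-1.76 and -2.54), and, among positive genes, for Fbxo17 (2.17 and 2.82), Cachd1 (1.88 and 2.76) and Hoxd10 (1.86 and 2.33). Fas was not called with bleo/Neo (-0.41, adjusted p = 0.0746), and the difference between its baselines did not pass the test (YAMC minus bleo/Neo -0.22 ± 0.12, adjusted p = 0.146).

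**Figure D5:**
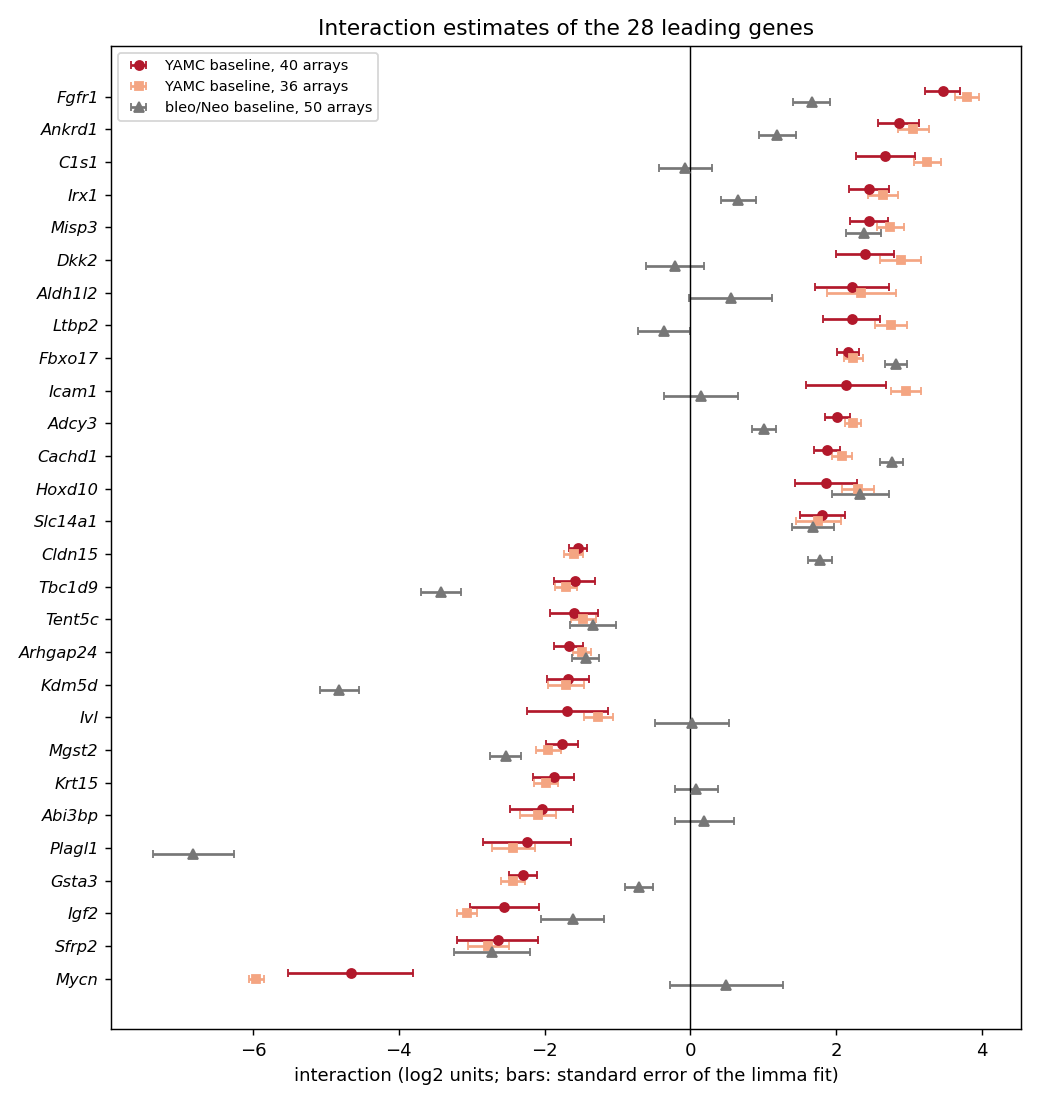
Interaction (log2, horizontal axis) of the 28 leading genes, 14 positive and 14 negative, with bars of 1 SE. Red circles are the 40 arrays with YAMC as baseline, orange squares the 36 arrays and grey triangles the bleo/Neo baseline in the fit of 50 arrays. Circles and squares lie on the same side of 0 for every gene, the triangles of Cldn15 and Mycn lie on the other side at 1.79 and 0.49, those of C1s1, Dkk2, Ltbp2, Icam1, Abi3bp, Krt15 and Ivl lie between -0.36 and 0.19, and that of Plagl1 lies at -6.82.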

How the data were processed

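The deposited table holds linear intensities, 1 value for each probe set on each array. The submitters' processing notes name RMA and no version, and array medians were 86.4 to 86.7. Of 45101 probe sets 64 were blank. Intensities were taken to log2 without an offset. Probe sets with exactly 1 symbol in the platform annotation (34945) were used; 34741 matched the reference gene table by gene number. Each of 18193 symbols took the probe set of highest mean, and 12730 above the median of the table (6.44) on at least 10 of the 40 arrays were tested.

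limma 3.58.1 in R 4.3.3 fitted 1 coefficient per group with an intensity trend over the 40 arrays, with Benjamini-Hochberg adjustment over all tested genes; the fit with bleo/Neo took all 50. The pipeline was tested on simulated data. Array number limits the precision, no read depth applies, and no scan date or batch could be examined. The members, the 40 gene lists (944 genes, 752 tested) and the tests were chosen with earlier results of these data known. Named are the 14 largest genes of each sign called over 40 and over 36 arrays. Up to 4 such members per list, Xist and the Y-linked genes are named as well. Clone names were passed over, and some other called list members are given by value. Promoters are RefSeq's on GRCm38.p6, which also gave names; the table's own build is not given in the sources used here. Alternatives were the 4 arrays left out, a replicate block, all 50 arrays in the fit, other filters, cyclic loess, an offset of 64, linear intensities, the mean of a gene's probe sets, no trend and array weights.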

Additional observations from a re-analysis of the deposited data

Results flagged for a closer look

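An array was marked where its gap to the nearest array of its group, relative to the group's range, passed Dixon's 95% critical value. Of 164 groups of 10 arrays examined, 4 for each of the 41 genes whose levels are given for every group, 45 were marked, and chance marks about 1 in 20 groups. Of the 45, 38 fall on the 4 arrays that lay nearest to another group. Values are log2 intensities.

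mp53 replicate 8 was set apart as highest of its group for Fgfr1 (7.81), C1s1 (8.10), Ltbp2 (6.72), Adcy3 (8.12) and Slc7a3 (7.01) and lowest of its group for Mycn (7.16) and Mgst2 (7.54). mp53 replicate 10 was set apart as highest of its group for Krt15 (8.66), Esam (7.37) and Xist (8.98) and lowest of its group for Sfrp2 (6.96), Plagl1 (7.45), Abi3bp (5.09) and Tent5c (7.28). Ras replicate 10 was set apart as highest of its group for Sfrp2 (10.36), Igf2 (8.92), Plagl1 (10.54), Abi3bp (7.81), Arhgap24 (10.42), Tent5c (9.39), Tbc1d9 (8.01), Pmaip1 (9.84) and Slc2a3 (8.44) and lowest of its group for Hoxd10 (6.23), Mycn (13.67), Krt15 (7.05) and Ivl (7.59). YAMC replicate 2 was set apart as highest of its group for Mycn (13.82), Igf2 (9.02) and Mgst2 (8.58) and lowest of its group for Fgfr1 (6.56), C1s1 (5.72), Ltbp2 (4.66), Icam1 (7.27), Adcy3 (7.58), Hoxd10 (6.83), Ivl (6.02) and Id2 (6.99).

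Among the other 36 arrays, mp53/Ras replicate 10 was highest of its group for Aldh1l2 (9.88). mp53/Ras replicate 4 was highest of its group for Fbxo17 (8.19) and lowest of its group for Adcy3 (7.44), Cachd1 (7.09) and Tent5c (5.24). YAMC replicate 7 was highest of its group for Esam (7.07). mp53/Ras replicate 8 was lowest of its group for Xist (8.31).

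The difference mp53/Ras minus mp53 departed from the difference Ras minus YAMC, by the test of the interaction itself, for 1602 genes. Ras minus YAMC also holds any effect of the infection and its vectors, which cannot be told apart from that of Ras here.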

How the results depend on the processing

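The count of 1602 called genes (696 positive, 906 negative) was within 1.5 times of itself with a replicate block (1945), all 50 arrays in the fit (1550), at least 20 arrays above the median (1415), cyclic loess (1648), log2(value + 64) (1588), linear intensities (1516), the mean of a gene's probe sets (1692) and no trend (1590). It was 2614 (1232 and 1382) without the 4 arrays, 4092 (1968 and 2124) with array weights, 3416 (1590 and 1826) without a filter, where 18193 genes were tested, and 138 (64 and 74) at a size of at least 1. A fit without the 4 arrays and with the replicate block, added after seeing the data, called 3191 (1519 and 1672). Of the 1602, 1518 were called with the same sign without the 4 arrays, 1336 on linear intensities and 1360 with the mean of probe sets. Whether called there or not, 9 of the 1602 had an estimate of opposite sign on linear intensities and 13 with the mean of probe sets. The positive share of the calls was 43.4% on log2 and 49.7% on linear values. With bleo/Neo as baseline the count of 2991 became 5034 (2560 and 2474) without a filter. Linear intensities turned 4 of the 117 named genes, none of which was called there: Arhgap24 (38.5 units), Pmaip1 (438.6), Krt18 (99.3) and Hey2 (2.22). Calls were lost for 18 more on linear values (Tent5c, Fas, Lig1, Rb1, Igf2r, Etv5, Jund, Krt8, Id4, Id2, Nog, Wnt4, Gpx3, Hk2, Mgp, Adamts9, Rprm and Oas2), 10 with the mean of probe sets (Bcl2, Cdkn1a, Igfbp7, Etv5, Hes6, Zic1, Col8a1, Adamts9, Ifi35 and Hspa5), 4 with the offset (Hey2, Id4, Nog and Adamts9) and 2 with all 50 arrays (Gfap and Gpx3). No other alternative ended a call among the named genes it tested, which for the 36 arrays is what the naming rule selected; the filter of at least 20 arrays tested 102 of the 117. The causes were not tested. Same-numbered arrays of different groups had deviations correlated over 0.1 in 40 of 60 pairs (mean 0.168, lowest -0.517, highest 0.719). The mean for differently numbered arrays was -0.018. The labels do not say what same-numbered arrays share, so the replicate block with its 1945 calls is a description only.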

Other observations

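Some genes outside the naming rule were set apart in mp53/Ras cells, and were chosen here after their values were seen. Plac8, a small cysteine-rich protein, averaged 11.76 on mp53/Ras arrays, 9.45 on mp53 arrays and 11.09 on Ras arrays, against 9.94 on YAMC arrays (interaction 1.16 ± 0.35). Dpt, the matrix protein dermatopontin, averaged 7.50, 6.41 and 6.48 on mp53/Ras, mp53 and Ras arrays, against 6.50 on YAMC arrays (1.11 ± 0.14). Pla2g7, which hydrolyses platelet-activating factor, averaged 8.65, 5.81 and 7.15 on mp53/Ras, mp53 and Ras arrays, against 5.29 on YAMC arrays (0.98 ± 0.27). All mp53/Ras arrays of these 3 genes lay above every array of the other 3 groups.

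On the low side, Grhl3, a grainyhead transcription factor of epithelial barriers, averaged 4.90 on mp53/Ras arrays, 7.15 on mp53 arrays and 6.75 on Ras arrays, against 7.73 on YAMC arrays (-1.27 ± 0.24), and Celf5, an RNA-binding protein, averaged 7.71, 9.14 and 9.45 on mp53/Ras, mp53 and Ras arrays, against 9.50 on YAMC arrays (-1.39 ± 0.24). Over 36 arrays all Ras arrays stood above every mp53/Ras, mp53 and YAMC array for 18 of the 866 negative genes called in both fits, where 25 of all tested genes did (0.196%). Chosen after their values were seen, these included Eef1a2, a translation elongation factor (-1.26 ± 0.11), Itgb2, a leukocyte integrin subunit (-1.24 ± 0.27), Serpinb5, the serpin maspin (-1.06 ± 0.12), Cdcp1, a membrane glycoprotein (-1.08 ± 0.15), Zfp750, a factor of epidermal differentiation (-1.10 ± 0.13), and Krt7. Serpinb5 averaged 5.91 on mp53/Ras arrays, 6.07 on mp53 arrays and 6.81 on Ras arrays, against 5.91 on YAMC arrays. The clone-named 3110040M04Rik had an interaction of -4.09 ± 0.55, with a mean of 9.09 on Ras arrays and 5.37, 5.60 and 5.23 on mp53/Ras, mp53 and YAMC arrays.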
